A study of Rattus norvegicus with 90 samples.

Results

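Microglia of young rats that had received the 2 lower intranasal doses of human umbilical cord mesenchymal stromal cells (HuMSC) are described here, against microglia of injured rats that received none. Libraries were chosen by their titles, which state collection at postnatal day (P) 22, the intranasal route at P20, IL-1β, and 20 or 50 M cells/kg. This gave 6 of the 90 libraries in the series, 3 for 20 M cells/kg (HuMSC20) and 3 for 50 M cells/kg (HuMSC50). Male Wistar Han rats were used throughout. Both dose groups had received recombinant mouse IL-1β intraperitoneally at 20 µg/kg from P1 to P5, and brains were collected 48 h after the HuMSC. The HuMSC125 group (3 libraries) had the same IL-1β course and 125 M cells/kg. The injured group (3 libraries) had IL-1β and a sham treatment of PBS. The control group (3 libraries) had PBS in place of IL-1β and the same sham. All 15 libraries came from sequencing run 415. For the comparison of routes, the 15 libraries of the intravenous experiment at P22 (run 416, the same 5 groups) were added. The series asks which dose, time and route of HuMSC moves the microglial transcriptome of this model of inflammatory preterm brain injury. Nothing in the labels ties a library to a separate animal, so the p-values measure only the spread between samples, and the labels do not say how many HuMSC reached the brain.

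Microglia are the resident macrophages of the brain. They survey the tissue through receptors such as P2ry12 and Cx3cr1, depend on Csf1r signalling to survive, and answer injury with cytokines, complement and antigen presentation. HuMSC are connective tissue progenitors studied for the factors they secrete, which can damp innate immune responses. Cells isolated with antibody-coupled beads after tissue dissociation also carry immediate early transcripts, a class of genes that respond within minutes to stimulation, and the RNA of other brain cells that came through the beads.

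The deposited table holds raw read counts, and levels below are CPM, counts scaled to the library total, after TMM scaling, which corrects that total for a few dominant genes. Library totals ran from 14.6 to 26.1 M counts. The markers fit the labelled cell type in every library: P2ry12 lay between 1812 and 2381 CPM in the 6 lower-dose libraries and between 1677 and 2368 CPM in the injured ones, and Csf1r between 13906 and 15551 CPM in lower-dose libraries and between 10424 and 15324 CPM in injured ones. Tnf, a classical inflammatory cytokine, had 0 counts in all 6 lower-dose and all 3 injured libraries and in 87 of the 90 libraries of the table, so nothing is read from it here, and Arg1, a repair-type arginase, had counts in 1 lower-dose library only, at 0.0374 CPM.

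A pair of libraries stood apart, and results that rest on them are given with and without them. Injured replicate 1 had a median correlation of 0.960 with the other libraries, against 0.977 to 0.988 for the rest of the 15. In that library the mean log2 CPM was 6.06 over 36 oxidative phosphorylation genes, against 5.07 to 5.55 in the other 14, and 5.68 over 29 chromatin regulators, against 6.39 to 6.75. HuMSC50 replicate 3 carried more RNA of the choroid plexus and ependyma, the epithelia that line the ventricles. The summed level of 11 markers of these cells was 11285 CPM there, against 1259 to 3530 CPM in the other 5 lower-dose libraries. It was 4853 to 11910 CPM in HuMSC125 and 1646 to 4476 CPM in injured libraries. None of the 11 markers was at 0. HuMSC50 replicate 3 also had the highest mean log2 CPM of the 15 libraries for endothelial (6.83), mural (4.66), fibroblast (4.63) and astrocyte (3.61) markers. The next highest, all in HuMSC125, were 6.74, 4.47, 4.22 and 3.60. For astrocyte markers this depended on the measure. Summed over 13 markers, HuMSC50 replicate 3 had 545 CPM, against 527 to 698 CPM in the other lower-dose libraries. HuMSC125 had 552 to 712 CPM. In bulk RNA, fewer cells of a type and less RNA per cell cannot be told apart.

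**Figure D1:**
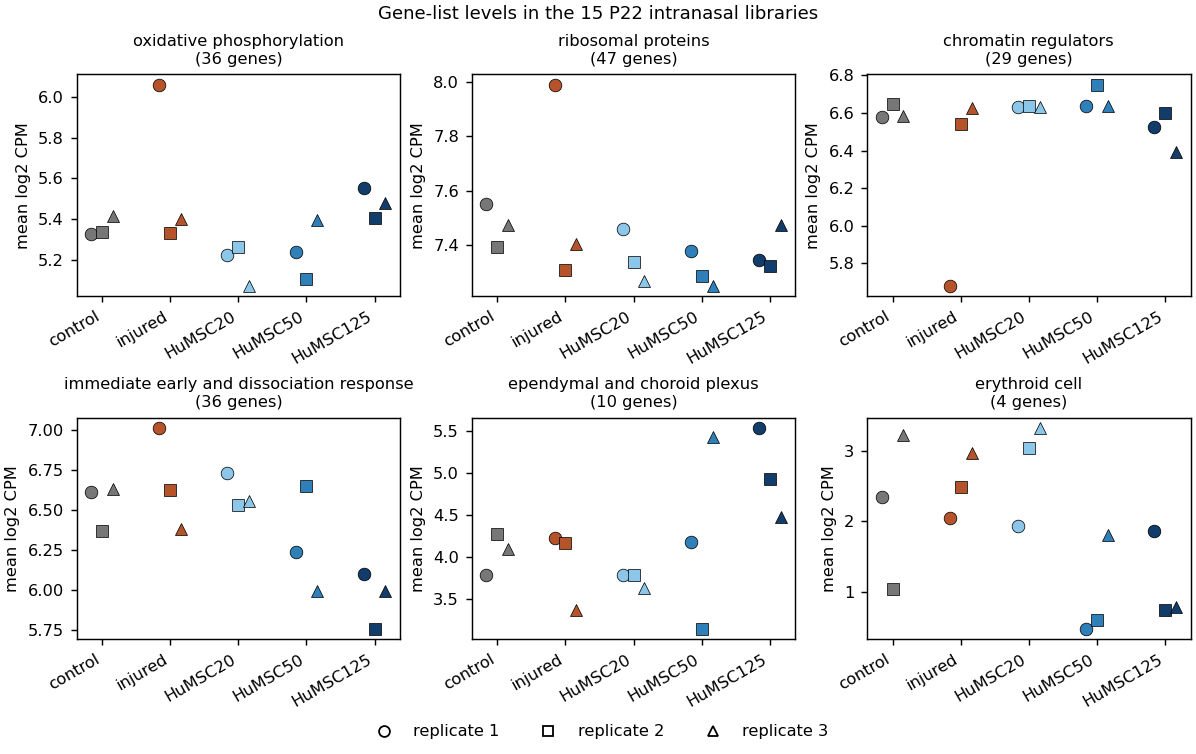
Mean log2 CPM (vertical axis) of 6 gene lists in the 15 intranasal libraries at P22, with control, injured and rising HuMSC dose along the horizontal axis, colours for groups and symbols for replicate numbers. Injured replicate 1 sits at 6.06 for oxidative phosphorylation and 5.68 for chromatin regulators, outside all other libraries, and HuMSC50 replicate 3 sits at 5.42 for ependymal and choroid plexus markers, above the other lower-dose libraries.

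The first question was what the lower doses together did relative to injured microglia. At an adjusted p under 0.05 in edgeR's quasi-likelihood test, 0 of 13594 genes passed (0%). The smallest adjusted p was 0.185, for Mus81 and others. At an unadjusted p under 0.05 there were 2787 genes (20.5%), 1125 higher (8.28%) and 1662 lower (12.2%). With limma-voom 0 genes passed, and with DESeq2 167 passed, 70 higher and 97 lower. Without injured replicate 1 the unadjusted count was 1012 (7.34%), 519 higher (3.76%) and 493 lower (3.57%), and DESeq2 passed 6. The genes of smallest p are therefore described by their values and missed the threshold in edgeR.

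Genes of several kinds led those that were higher in the lower-dose libraries. Cybrd1 (ENSRNOG00000009620) encodes a ferric reductase at the plasma membrane. It had 5.78, 5.89 and 9.68 CPM in HuMSC20 and 6.40, 9.41 and 8.95 CPM in HuMSC50, against 3.88, 3.69 and 2.57 CPM in injured microglia. All 6 lower-dose libraries lay above all 3 injured ones, and the log2 difference was 1.19 ± 0.22 (SE; edgeR adjusted p = 0.185). Plxna2, a plexin that receives semaphorin signals, had 87.5, 47.9 and 86.0 CPM in HuMSC20 and 52.4, 27.6 and 52.9 CPM in HuMSC50, against 12.4, 24.3 and 22.9 CPM in injured microglia. The groups did not overlap, and the log2 difference was 1.52 ± 0.31. Such a separation of all lower-dose libraries above all injured ones was seen in 3.57% of genes tested. Kcnj15, an inward rectifier potassium channel, ranged from 8.06 to 13.9 CPM in lower-dose libraries and from 1.29 to 5.46 CPM in injured ones (a 2.83-fold difference). Ocln, the tight junction protein occludin, was tightly spread, with 157 to 172 CPM in lower-dose libraries and 132 to 134 CPM in injured ones (log2 difference 0.30 ± 0.06). Cybb, the catalytic subunit of the phagocyte NADPH oxidase, had 392, 217 and 331 CPM in HuMSC20 and 261, 235 and 269 CPM in HuMSC50, against 105, 125 and 219 CPM in injured microglia. Here 1 HuMSC20 library fell just under the highest injured one, and the log2 difference was 0.92 ± 0.21. Itpr1, the calcium release channel of the endoplasmic reticulum, was higher by 0.51 ± 0.12.

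Lower in the lower-dose libraries was Mus81 (ENSRNOG00000020617), an endonuclease that resolves branched DNA. It had 14.1, 13.8 and 15.3 CPM in HuMSC20 and 15.1, 14.9 and 14.8 CPM in HuMSC50, against 19.8, 19.8 and 21.3 CPM in injured microglia. The 2 dose groups were nearly level, and all 6 libraries lay below all injured ones, as was seen in 3.33% of genes (log2 difference -0.47 ± 0.08). Fbxo6, a substrate receptor of ubiquitin ligases that binds glycoproteins, ranged from 43.4 to 49.9 CPM in lower-dose libraries and from 57.1 to 64.9 CPM in injured ones (log2 difference -0.38 ± 0.07). Tnfrsf25, the death receptor DR3, was at -0.69 ± 0.14 on the log2 scale, and 1 of its lower-dose libraries overlapped the injured ones. Ccdc22, a subunit of an endosomal sorting complex, was at -0.55 ± 0.11.

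**Figure D2:**
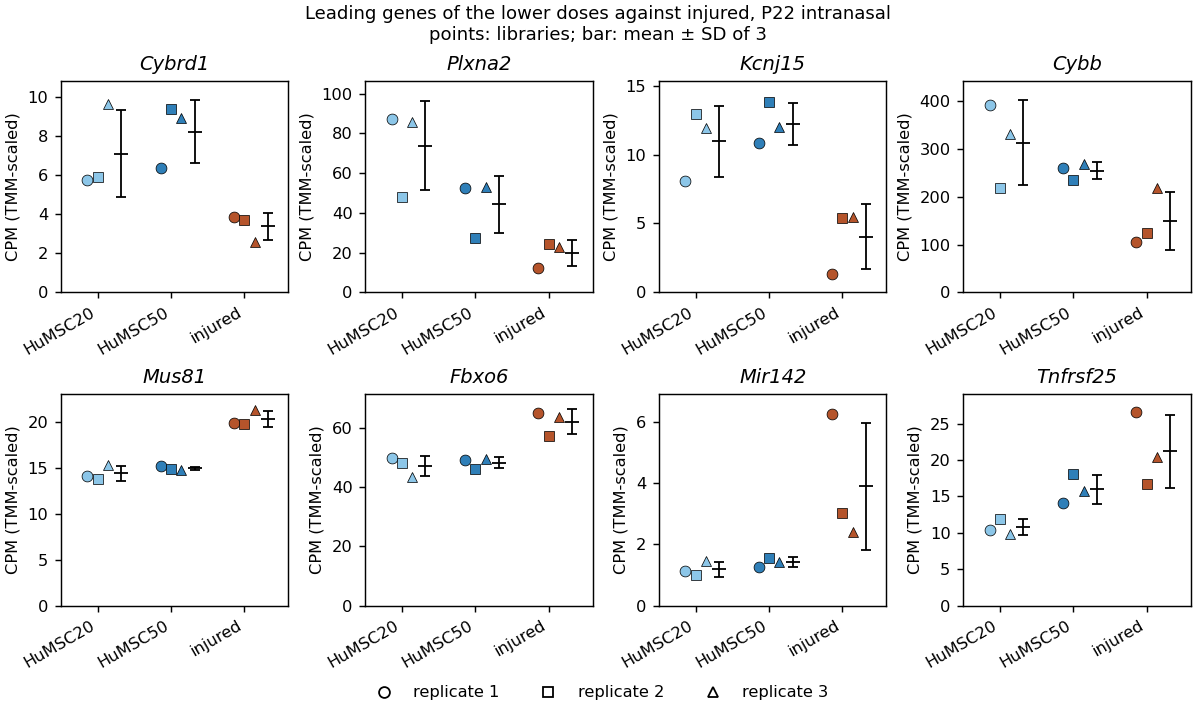
CPM (vertical axis, from 0) of 8 of the leading genes in HuMSC20, HuMSC50 and injured microglia at P22, intranasal route. Points are libraries, with symbols for replicate numbers, and bars are the mean ± SD of 3. Cybrd1, Plxna2 and Kcnj15 lie above all injured libraries in all 6 lower-dose libraries, and Mus81, Fbxo6 and Mir142 below them.

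Mir142, the locus of a microRNA abundant in blood-forming cells and their macrophage progeny, was among the lower genes. Reads counted at the locus come from polyadenylated RNA and do not measure the mature microRNAs. The mature sequences that the locus encodes are shown because they name the product, with the seed (bases 2 to 8, which pairs with targets) in capitals, from RefSeq on the plus strand of GRCr8.
rno-miR-142-5p: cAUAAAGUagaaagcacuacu
rno-miR-142-3p: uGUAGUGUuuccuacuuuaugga
The arms lie at chr10:73055119-73055139 and chr10:73055155-73055177, and their seeds differ. The locus had 1.11, 0.991 and 1.46 CPM in HuMSC20 and 1.26, 1.57 and 1.42 CPM in HuMSC50, against 6.25, 3.02 and 2.41 CPM in injured microglia. The groups did not overlap, the highest value was that of injured replicate 1, and the log2 difference was -1.57 ± 0.32, or -1.04 ± 0.30 without that library. Both left edgeR's adjusted p above the threshold, at 0.185 and 0.68.

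Gene lists moved with injured replicate 1. Of 36 oxidative phosphorylation genes, the mitochondrial machinery of ATP production, 27 were lower at an unadjusted p under 0.05 and none was higher, and the median log2 difference was -0.40, against -0.00 over all genes. Without injured replicate 1 the count was 3 of 36 and the median -0.11. Ndufb8, a complex I subunit, shows the pattern: it had 60.4, 66.1 and 56.9 CPM in HuMSC20 and 72.3, 52.1 and 64.2 CPM in HuMSC50, against 128, 65.1 and 81.8 CPM in injured microglia, with replicate 1 at the highest value. Of 47 ribosomal protein genes 28 were lower with a median of -0.30, which became 2 of 47 and -0.06 without that library. Among 29 chromatin regulators 11 were higher with a median of 0.30, and 7 with a median of 0.10 without it. Of these, Setd2, a histone H3 lysine 36 methyltransferase, had 143, 149 and 171 CPM in HuMSC20 and 153, 163 and 148 CPM in HuMSC50, against 91.2, 130 and 134 CPM in injured microglia. Chd8, a chromatin remodeller, was higher by 0.19 ± 0.06 without replicate 1 and by 0.36 ± 0.11 with it. The part of that library's own RNA state in these results was not tested.

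The immune lists were counted in the same way. Of 20 antigen presentation genes 7 were lower and 1 higher with a median of -0.26, and 3 lower with a median of -0.15 without injured replicate 1. Psmb9, a subunit of the immunoproteasome, had 28.6, 25.2 and 26.9 CPM in HuMSC20 and 24.6, 25.8 and 28.2 CPM in HuMSC50, against 39.8, 37.9 and 33.2 CPM in injured microglia. It lay below all injured libraries in all 6 (log2 difference -0.48 ± 0.11, and -0.41 ± 0.12 without replicate 1). Tap1, which pumps peptides to class I molecules, was at -0.50 ± 0.13, and at -0.44 ± 0.15 without that library. Of 31 genes of cytokines, chemokines and NF-kB targets 4 were lower with a median of -0.14, and 3 with a median of -0.02 without injured replicate 1. The 4 are 12.9% of the list, near the 12.2% of all genes that were lower. They include Cxcl10, an interferon-induced chemokine, at -0.79 ± 0.20, and Relb, an NF-kB subunit, at -0.32 ± 0.10. Without replicate 1, Cxcl10 was at -0.38 ± 0.15. Of 26 homeostatic microglia genes 7 were lower and 1 higher, and without that library 1 was lower and none higher. Cst3, a secreted protease inhibitor, was at -0.44 ± 0.13 and at -0.21 ± 0.11, and Trem2, a lipid-sensing receptor, at -0.42 ± 0.13 and at -0.34 ± 0.14. The 37 interferon response genes had a median of 0.02. Among 20 repair and immunoregulatory genes 2 were higher and 1 lower, 10% and 5% of the list, beside 8.28% and 12.2% of all genes. Its median was 0.15, also without injured replicate 1, and -0.08 without HuMSC50 replicate 3. For each dose alone against injured the list's median was 0.06 (HuMSC20) and 0.02 (HuMSC50). Cd163, a member of this list and a scavenger receptor for haemoglobin, was at 0.40 ± 0.13. Il1b, P2ry12, Igf1, Spp1 and Mki67 were within 0.30 of 0 on the log2 scale, with SEs from 0.13 to 0.40.

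**Figure D3:**
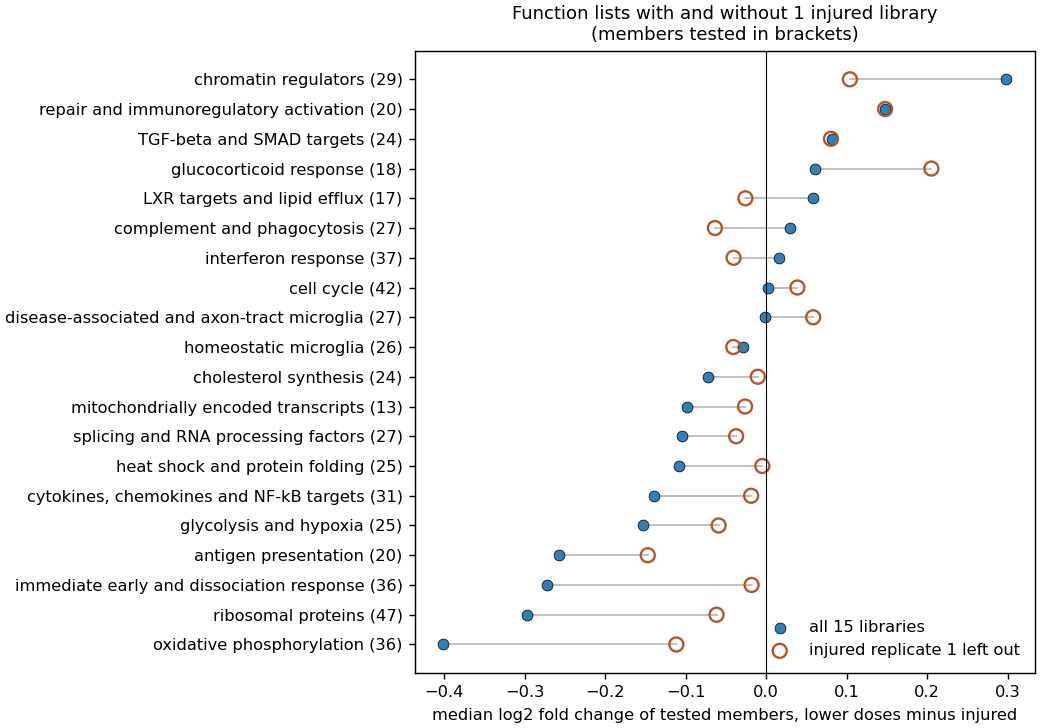
Median log2 fold change, lower doses minus injured (horizontal axis), of the tested members of 20 function lists (vertical axis), with all 15 libraries (filled) and without injured replicate 1 (open). Oxidative phosphorylation moves between -0.40 and -0.11 and ribosomal proteins between -0.30 and -0.06, while the repair and immunoregulatory list is at 0.15 in both. For each dose alone, not drawn, that list is at 0.06 (HuMSC20) and 0.02 (HuMSC50) with all 15 libraries.

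Each dose was also set against injured microglia, with the same injured libraries on the other side, so agreement between the doses is no independent evidence. In edgeR 0 genes passed for HuMSC20 (0%), and 1965 had an unadjusted p under 0.05 (14.5%), 6.26% of all genes higher and 8.19% lower. For HuMSC50, 0 passed (0%) and 2238 had such a p (16.5%), 6.58% higher and 9.88% lower. With limma-voom both counts were 0, and with DESeq2 they were 23 and 32. Without injured replicate 1 the unadjusted counts were 857 (6.21%) for HuMSC20 and 1037 (7.52%) for HuMSC50. For HuMSC20 the smallest p belonged to Tnfrsf25, which had 10.4, 12.0 and 9.86 CPM in HuMSC20, against 26.6, 16.7 and 20.3 CPM in injured microglia. The groups did not overlap, as for 7.84% of genes lower and 7.37% higher at this dose. Its log2 difference was -0.98 ± 0.17 at this dose (edgeR adjusted p = 0.343) and -0.41 ± 0.17 in HuMSC50 (adjusted p = 0.282). For HuMSC50 the smallest p belonged to Arc (ENSRNOG00000043465), an immediate early gene best known from neurons. Arc had 3.09, 3.59 and 2.98 CPM in HuMSC50, against 7.47, 8.31 and 6.85 CPM in injured microglia. Here too the groups did not overlap, as for 11% of genes lower and 8.41% higher at this dose. This was a log2 difference of -1.23 ± 0.19 (edgeR adjusted p = 0.172). In HuMSC20 it had 5.62, 7.16 and 4.86 CPM, a difference of -0.36 ± 0.18. Gdf15, a stress-induced secreted factor, had 3.54, 3.99 and 4.35 CPM in HuMSC50, against 11.2, 9.18 and 6.80 CPM in injured microglia (log2 difference -1.19 ± 0.24), and was at -0.31 ± 0.23 in HuMSC20. Per2, a repressor of the circadian clock, had 47.8, 56.4 and 45.4 CPM in HuMSC50, against 19.7, 31.1 and 32.9 CPM in injured microglia (log2 difference 0.83 ± 0.17, and 0.38 ± 0.17 in HuMSC20). Its paralogue Per3 was higher by 0.71 ± 0.18 in HuMSC50. The labels give no hour of collection.

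The lists gave these counts at an unadjusted p under 0.05 for each dose. Without injured replicate 1, 3.7% of all genes were higher and 2.51% lower in HuMSC20, and 3.49% and 4.02% in HuMSC50. Of 36 oxidative phosphorylation genes 24 were lower in HuMSC20 and 15 in HuMSC50, and without injured replicate 1 these were 3 and 4. Antigen presentation had 5 of 20 lower in HuMSC20 with a median of -0.10, and 9 lower and 1 higher in HuMSC50 with a median of -0.39. Without that library it was 1 lower with a median of 0.02 in HuMSC20, and 3 lower with a median of -0.23 in HuMSC50. Of 36 immediate early genes 2 were lower and 1 higher in HuMSC20, and 11 lower and 1 higher in HuMSC50, with medians of -0.08 and -0.37. Without injured replicate 1 it was 1 lower in HuMSC20 with a median of 0.15, and 5 lower and 1 higher in HuMSC50 with a median of -0.10. Without HuMSC50 replicate 3 as well, the HuMSC50 median was 0.04. The interferon list had a median of 0.12 in HuMSC20 and of -0.22 in HuMSC50. Cxcl10 was at -1.03 ± 0.24 and Relb at -0.50 ± 0.12 in HuMSC50, or -0.62 ± 0.17 and -0.43 ± 0.12 without injured replicate 1. Neutrophil genes, a sign of blood cells in the preparation, had 2 of 13 higher in HuMSC20 with a median of 0.35, and none in HuMSC50 with a median of -0.15. Without injured replicate 1 it was 7 of 13 with a median of 0.99 in HuMSC20, and none with a median of 0.41 in HuMSC50. Without HuMSC50 replicate 3 as well, 3 were higher in HuMSC50 with a median of 0.73, beside 3.5% of all genes. Injured replicate 1 had the highest neutrophil mean log2 CPM of its group, 3.76 against 2.43 and 2.91. Leaving it out therefore raises these differences.

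The difference between the doses was tested directly. In edgeR 0 of 13594 genes passed (0%), and 522 had an unadjusted p under 0.05 (3.84%), 2.1% of all genes higher and 1.74% lower. The unadjusted count was 821 (5.95%) without injured replicate 1 and 335 (2.44%) without HuMSC50 replicate 3. With limma-voom 0 passed and with DESeq2 1, Cacna1d. Cacna1d encodes a voltage-gated calcium channel and had 3.43, 6.47 and 3.47 CPM in HuMSC50, against 11.2, 12.0 and 8.59 CPM in HuMSC20. The groups did not overlap, as for 3.78% of genes lower and 3.68% higher, with a log2 difference of -1.26 ± 0.26 (edgeR adjusted p = 1, DESeq2 adjusted p = 0.0371). Arc was at -0.87 ± 0.19 and Gdf15 at -0.87 ± 0.24 on the log2 scale. Lbp, which hands lipopolysaccharide to CD14, had 2.06, 1.44 and 1.27 CPM in HuMSC50, against 2.86, 3.30 and 4.15 CPM in HuMSC20, a difference of -1.12 ± 0.26. Klf2, a transcription factor that restrains myeloid activation, had 43.0, 45.6 and 37.5 CPM in HuMSC50, against 118, 109 and 46.7 CPM in HuMSC20. The third HuMSC20 library lay close to HuMSC50, and the difference was -1.11 ± 0.29. Lpl, lipoprotein lipase, was higher in HuMSC50 by 0.76 ± 0.23. None of these passed in edgeR with all 15 libraries, and of them Cacna1d passed in DESeq2. With only the libraries of the 2 doses in the edgeR fit, Kctd14 and AABR07034648.1 passed. A missed threshold does not show that the doses act alike.

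**Figure D4:**
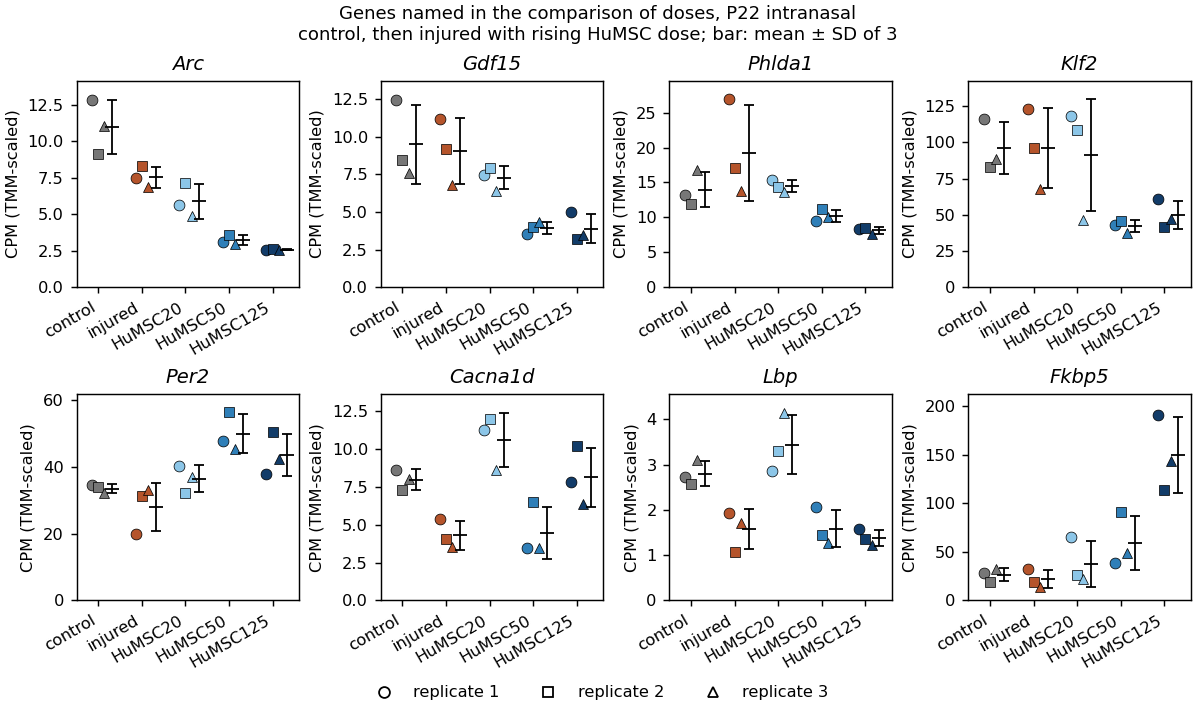
CPM (vertical axis, from 0) of 8 genes in control, injured, HuMSC20, HuMSC50 and HuMSC125 microglia at P22, intranasal route, in that order. Points are libraries and bars the mean ± SD of 3. Arc lies between 2.98 and 3.59 CPM in HuMSC50 and between 4.86 and 7.16 CPM in HuMSC20, and Cacna1d lies between 3.43 and 6.47 CPM in HuMSC50 and between 8.59 and 12.0 CPM in HuMSC20.

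Of 37 interferon response genes, 8 were lower in HuMSC50 than in HuMSC20 at an unadjusted p under 0.05 and none was higher, with a median of -0.29, beside 1.74% of all genes. Without HuMSC50 replicate 3 the count was 6 and the median -0.46. Usp18, which removes ISG15 from proteins, had 3.14, 1.37 and 3.32 CPM in HuMSC50, against 5.68, 5.23 and 11.0 CPM in HuMSC20 (log2 difference -1.48 ± 0.41). Markers of other cells differed between the doses as well. All 4 tested erythroid genes were lower in HuMSC50, with a median of -1.84, and their mean log2 CPM was 0.48, 0.61 and 1.81 in HuMSC50, against 1.94, 3.04 and 3.32 in HuMSC20. Of 13 neutrophil genes 1 was lower in HuMSC50 and none higher, with a median of -0.60, or -0.22 without HuMSC50 replicate 3. Fcnb, a ficolin of myeloid cells, was at -0.97 ± 0.26. Of 10 ependymal and choroid plexus genes 7 were higher in HuMSC50 with a median of 1.37, and 0 with a median of 0.16 without HuMSC50 replicate 3. The part of these cells in the other dose differences was not tested.

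Against HuMSC125, edgeR passed 0 of 13594 genes (0%), with 1159 at an unadjusted p under 0.05 (8.53%), of which 468 were higher (3.44%) and 691 lower (5.08%). With limma-voom 0 passed, and with DESeq2 36, 30 higher and 6 lower. This count rested on HuMSC50 replicate 3: without it 267 genes passed in edgeR, 36 higher (0.262%) and 231 lower (1.68%) in the lower doses, and at an unadjusted p under 0.05 3.97% of genes were higher and 9.79% lower. The balance of the unadjusted counts rested on injured replicate 1, which is in the fit but not in this contrast. Without it 2113 genes had such a p, 1203 higher (8.72%) and 910 lower (6.6%). Without both libraries 605 passed the adjusted threshold, 225 higher (1.64%) and 380 lower (2.77%). Pde4b (ENSRNOG00000005905), a phosphodiesterase that degrades cyclic AMP, had 11.9, 11.7 and 13.9 CPM in HuMSC20 and 9.37, 8.62 and 8.12 CPM in HuMSC50, against 5.98, 5.20 and 4.15 CPM in HuMSC125. The groups did not overlap, as for 3.38% of genes higher and 2.41% lower, and the log2 difference was 1.03 ± 0.15 (edgeR adjusted p = 0.0893), or 1.05 ± 0.16 without that library (adjusted p = 0.0237). Its adjusted p was 0.0468 when injured replicate 1 was left out.

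Tnfaip3, Cxcl2, Nfkbiz and Il1b, all of the cytokine and NF-kB list, were among the 36 higher genes that passed without HuMSC50 replicate 3. The promoters of Tnfaip3, Cxcl2 and Nfkbiz are shown because each of the genes was higher in the lower doses than in HuMSC125 by that test and each window holds GGGAA followed by any 3 bases and CC, an NF-kB-like motif searched on both strands and given in capitals. The windows are the 250 bases before the RefSeq start, on GRCr8, at chr1:15543980-15544229 (minus strand), chr14:17467256-17467505 (minus strand) and chr11:58251471-58251720 (plus strand).
Tnfaip3: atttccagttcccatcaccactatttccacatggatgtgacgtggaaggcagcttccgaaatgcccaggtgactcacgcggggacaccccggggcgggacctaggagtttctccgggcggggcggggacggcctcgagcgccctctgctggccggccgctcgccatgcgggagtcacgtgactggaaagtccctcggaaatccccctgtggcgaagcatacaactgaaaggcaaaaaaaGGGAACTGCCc
Cxcl2: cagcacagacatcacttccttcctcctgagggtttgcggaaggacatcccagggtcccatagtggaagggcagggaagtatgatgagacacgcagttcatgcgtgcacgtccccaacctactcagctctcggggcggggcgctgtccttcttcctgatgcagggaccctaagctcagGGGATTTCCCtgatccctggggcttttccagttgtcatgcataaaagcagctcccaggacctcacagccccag
Nfkbiz: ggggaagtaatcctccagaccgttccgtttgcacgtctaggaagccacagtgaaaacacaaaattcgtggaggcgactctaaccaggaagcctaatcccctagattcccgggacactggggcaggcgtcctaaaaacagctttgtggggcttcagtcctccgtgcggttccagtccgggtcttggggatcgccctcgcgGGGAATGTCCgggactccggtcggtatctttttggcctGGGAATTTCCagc
The motif occurred in 5.06% of 27457 windows of that length and in 10 of 25 windows of the cytokine and NF-kB list (40%). It occurred in 2 of 24 of the immediate early list (8.33%) and in 8 of 17 of the antigen presentation list (47.1%). The first list was drawn up from NF-kB targets, and a match is a description of the letters, not a bound site.

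Tnfaip3, the ubiquitin-editing enzyme A20 that shuts NF-kB signalling down, had 276, 242 and 239 CPM in HuMSC20 and 230, 375 and 191 CPM in HuMSC50, against 154, 87.4 and 142 CPM in HuMSC125. All 6 libraries lay above HuMSC125 (log2 difference 1.02 ± 0.22, edgeR adjusted p = 0.475; 1.11 ± 0.21 and 0.033 without HuMSC50 replicate 3). Cxcl2, a neutrophil chemokine, had 137, 128 and 138 CPM in HuMSC20 and 88.2, 173 and 69.3 CPM in HuMSC50, against 66.6, 27.5 and 60.6 CPM in HuMSC125. Its log2 difference was 1.24 ± 0.31, or 1.36 ± 0.29 without that library (edgeR adjusted p = 0.0361). Nfkbiz, a nuclear cofactor of NF-kB, was higher than in HuMSC125 by 1.04 ± 0.22 without that library (edgeR adjusted p = 0.035). These genes were not set apart from the injured group in the same way. Tnfaip3 had 185, 301 and 215 CPM in injured microglia and 269, 219 and 243 CPM in controls, and the log2 difference of the lower doses from injured was 0.15 ± 0.22. Cxcl2 had 203, 153 and 121 CPM in injured microglia and between 111 and 163 CPM in controls, and that difference was -0.39 ± 0.28. For Nfkbiz, with 159, 122 and 90.6 CPM in injured microglia and 104, 81.5 and 115 CPM in controls, it was -0.11 ± 0.23. The HuMSC125 libraries lay below all injured and control libraries for each of the 3 genes. Il1b, which encodes the IL-1β cytokine, had 80.1, 81.1 and 90.7 CPM in HuMSC20 and 50.1, 119 and 32.5 CPM in HuMSC50, against 42.0, 27.8 and 39.1 CPM in HuMSC125. HuMSC50 replicate 3 was its lowest lower-dose library and overlapped HuMSC125, and without it the log2 difference was 1.22 ± 0.24 (edgeR adjusted p = 0.0332), against 1.05 ± 0.30 with it (adjusted p = 0.536). Fkbp5, a glucocorticoid-induced chaperone partner, had 65.1, 26.1 and 21.9 CPM in HuMSC20 and 38.2, 90.5 and 49.2 CPM in HuMSC50, against 191, 114 and 143 CPM in HuMSC125. All 6 lay below HuMSC125, with a log2 difference of -1.66 ± 0.35 (edgeR adjusted p = 0.449), or -1.61 ± 0.37 without that library (adjusted p = 0.0449).

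Of 36 immediate early and dissociation response genes 22 were higher in the lower doses at an unadjusted p under 0.05 and none was lower, with a median of 0.50. Without HuMSC50 replicate 3 it was 23, with 8 past the adjusted threshold that 0.262% of all genes passed upward and 1.68% downward. Of 31 cytokine and NF-kB genes 11 were higher with a median of 0.40, and 13 without that library, with 6 past it. Antigen presentation had 9 of 20 higher with a median of 0.35. Of 27 disease-associated microglia genes 9 were higher and 1 lower. Itgax, the integrin CD11c, was higher by 0.85 ± 0.27, and by 1.00 ± 0.21 without HuMSC50 replicate 3 (edgeR adjusted p = 0.0361). Of 25 glycolysis and hypoxia genes 9 were lower and 1 higher. Markers of ventricular epithelium and astrocytes went the other way. Of 10 ependymal and choroid plexus genes 6 were lower with a median of -1.02, and 8 with a median of -1.64 without HuMSC50 replicate 3, of which 7 passed the adjusted threshold. Ttr, the transthyretin carrier made by choroid plexus, had 1624, 2179 and 1431 CPM in HuMSC20 and 3349, 1190 and 10665 CPM in HuMSC50, against 11310, 6388 and 4624 CPM in HuMSC125. Of 13 astrocyte genes 5 were lower, and 8 without that library with 5 passing, among them S100b at -0.96 ± 0.12 (edgeR adjusted p = 0.0153). Summed over the astrocyte genes, levels were 527 to 698 CPM in lower-dose libraries and 552 to 712 CPM in HuMSC125. HuMSC50 replicate 3 was set apart by its high levels of these markers. Leaving it out therefore favours these lists, and their counts without it are no independent evidence. With all 15 libraries 0 genes passed the adjusted threshold. The part of these cells in the differences of immune genes was not tested.

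**Figure D5:**
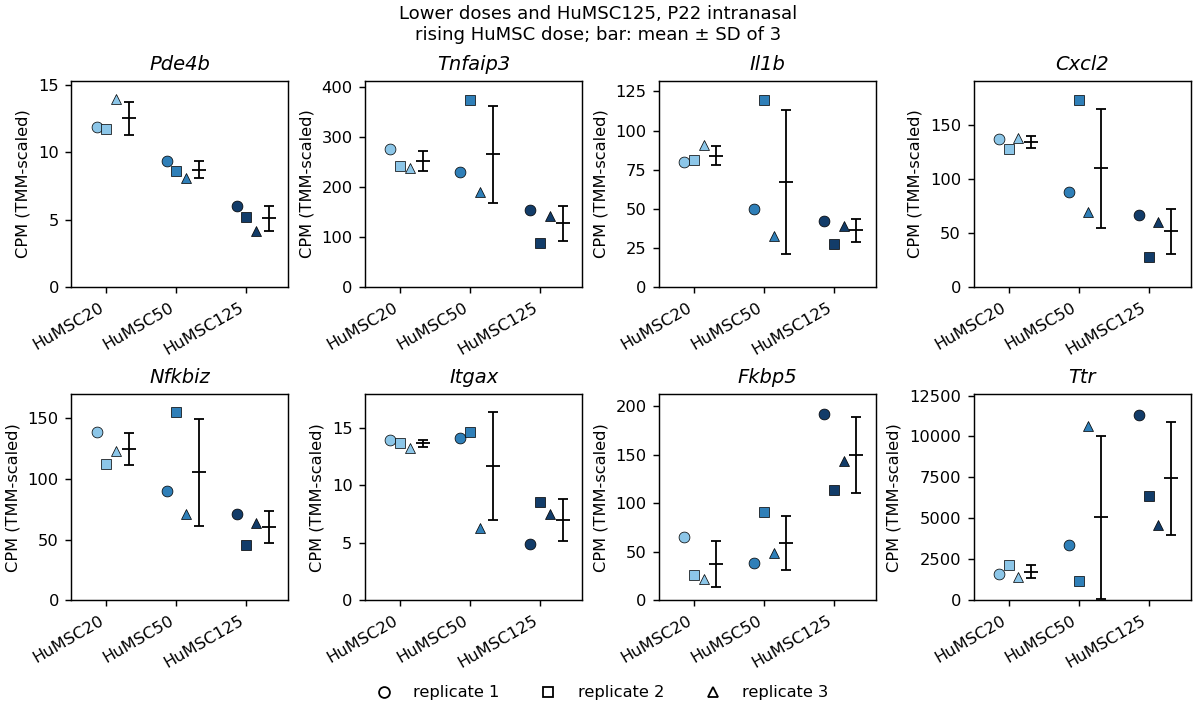
CPM (vertical axis, from 0) of 8 genes in HuMSC20, HuMSC50 and HuMSC125 microglia at P22, intranasal route. Points are libraries, with symbols for replicate numbers, and bars are the mean ± SD of 3. Pde4b, Tnfaip3, Cxcl2 and Nfkbiz lie above HuMSC125 in all 6 lower-dose libraries, Fkbp5 lies below it in all 6, and Ttr reaches 10665 CPM in HuMSC50 replicate 3.

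The lower doses were also set beside uninjured controls. In edgeR 1 of 13594 genes passed (0.00736%), and 654 had an unadjusted p under 0.05 (4.81%), 2.21% of all genes higher and 2.6% lower. Without injured replicate 1, which is in the fit but not in this contrast, 1374 had such a p (9.96%), 5.39% higher and 4.57% lower. With limma-voom 1 passed, and with DESeq2 10, 4 higher and 6 lower. The gene was Arc, which had 5.62, 7.16 and 4.86 CPM in HuMSC20 and 3.09, 3.59 and 2.98 CPM in HuMSC50, against 12.8, 9.12 and 11.1 CPM in controls. It fell by 1.34 ± 0.15 on the log2 scale (edgeR adjusted p = 0.00502), with all 6 libraries below all controls, as for 2.6% of genes lower and 3.02% higher. The call was lost without control replicate 1 (adjusted p = 0.0957) or control replicate 3 (adjusted p = 0.0635), while the difference stayed at -1.21 ± 0.17 and -1.34 ± 0.18. Cdk14, a cyclin-dependent kinase, was higher by 1.11 ± 0.18 and Tlr1, a receptor for bacterial lipopeptides, by 1.01 ± 0.18, neither past the threshold with all 15 libraries. Without HuMSC50 replicate 3, Tlr1 rose by 1.13 ± 0.14 and passed (edgeR adjusted p = 0.0131). Of 20 antigen presentation genes 5 were higher and 1 lower, with Cd74, the class II chaperone, at 0.53 ± 0.17 and RT1-Ba, a class II chain, at 0.50 ± 0.17. Neither was set apart from the injured group. For Cd74, 1 of the 6 lower-dose libraries lay above all injured ones and 2 below. For RT1-Ba, 2 lay above and 2 below. Reads of RT1 genes are uncertain, since near-identical copies can share them. Of 18 glucocorticoid response genes 3 were higher with a median of 0.34, and Per1, a clock gene that glucocorticoids induce, was at 0.98 ± 0.21. Of 47 ribosomal protein genes 6 were lower with a median of -0.14, and 16 with the same median without injured replicate 1.

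Whether the lower-dose difference from injured microglia depended on the route was tested as intranasal minus intravenous. In edgeR 0 of 14184 genes passed (0%), and with DESeq2 and limma-voom 0 passed. At an unadjusted p under 0.05 there were 678 genes in edgeR (4.78%), 2.31% of all genes higher and 2.47% lower. Adam8, a leukocyte metalloprotease, differed by 1.49 ± 0.33 between routes (edgeR adjusted p = 0.582), at 0.83 ± 0.25 by nose and -0.66 ± 0.22 by vein. Cybrd1 was at 1.19 ± 0.23 by nose and -0.06 ± 0.21 by vein, a difference of 1.26 ± 0.31. Plxna2 was at 1.53 ± 0.31 by nose and 0.17 ± 0.28 by vein. Of 24 cholesterol synthesis genes 8 were lower by nose relative to vein, with a median of -0.30, and Cyp51, a sterol demethylase, was at -0.50 ± 0.13. Of 13 neutrophil genes 5 were higher with a median of 0.88. The 7 erythroid genes all had positive differences with a median of 2.52, but 0 of them had an unadjusted p under 0.05. By nose these genes were not uniformly higher than in injured microglia. Of the 6 intranasal lower-dose libraries, 2 lay above all injured ones for Hbb and 4 below. For Hba-a2, 0 lay above and 4 below. The intranasal side of this contrast includes injured replicate 1, and each route was a sequencing run of its own.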

How the data were processed

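The authors deposited raw read counts per gene, whole numbers without normalization. The submitters' processing notes name the tools DESeq2 1.8.1, HTSeq 0.5.3, SAMtools and STAR 2.7.2d. The build behind the table, and how strand and shared reads were counted, are not given in the sources used here; no coordinates were taken from the table, and sequences are those of RefSeq for GRCr8. PolyA RNA was sequenced from stranded libraries, per the labels' protocols.

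All 15 intranasal libraries at P22 (14.6 to 26.1 M counts) entered 1 edgeR fit (version 4.0.16, R 4.3.3) of group means. Low genes were removed by filterByExpr (at least 10 counts, 15 in total), scaling was TMM, and contrasts were tested by quasi-likelihood, with p-values adjusted after Benjamini and Hochberg over all genes tested and a threshold of 0.05. The lower doses were the mean of HuMSC20 and HuMSC50. Routes were compared in 1 fit of 30 libraries. SE is the absolute log2 fold change divided by the root of F. The scripts were tested on simulated data. Alternatives were DESeq2 1.42.0, limma-voom (limma 3.58.1), other scaling and filters, a replicate block, fewer libraries and each library left out.

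The libraries, gene lists (20 function and 17 marker lists, 730 of 774 genes matched by symbol) and comparisons were chosen with earlier results of these data known. Per comparison, genes named were the 10 largest calls each way at a mean log2 CPM of 1 or more, or else those of smallest p up to 10 each way, then up to 4 per list and a fixed set. A gene outside this rule was picked with its values in view. Lists are described by counts at an unadjusted p under 0.05 and by medians, with no test.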

Additional observations from a re-analysis of the deposited data

How the results depend on the processing

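The count of genes past an adjusted p under 0.05 kept to within 1.5 times the edgeR count under other scaling, a stricter filter and limma-voom in every comparison. It moved with DESeq2, to 167 for the lower doses minus injured, 23 and 32 for HuMSC20 and HuMSC50 minus injured, 1 for HuMSC50 minus HuMSC20, 36 for the lower doses minus HuMSC125 and 10 for the lower doses minus control. With DESeq2 and without injured replicate 1, an alternative chosen after seeing the data, 6 genes passed for the lower doses minus injured (Kcnj15, Cybrd1, Tspan5, Ocln, Mus81 and Hexd), 5 of them among the 167. Without a filter on low counts 3 genes passed for the lower doses minus HuMSC125 (Pde4b, Tent5c and Adamts13). With only the libraries of the groups compared, 1 passed for HuMSC20 minus injured (Kctd14), 2 for HuMSC50 minus HuMSC20 (Kctd14 and AABR07034648.1) and 0 for the lower doses minus control, where Arc had an adjusted p of 0.0755. The cause of these shifts was not tested. Leaving out each replicate gave 0 throughout for each contrast with injured, for HuMSC50 minus HuMSC20 and for the routes, 0 to 267 for the lower doses minus HuMSC125 (267 without HuMSC50 replicate 3, 3 without HuMSC125 replicate 1) and 0 to 2 for the lower doses minus control (2 without HuMSC50 replicate 1 or 3, 0 without control replicate 1 or 3). The genes at an unadjusted p under 0.05 for the lower doses minus injured ranged from 936 to 3822, with 1012 without injured replicate 1 and 3822 without injured replicate 2. Of the values of named genes under these alternatives, 2257 kept their direction and side of the threshold, 94 passed it that had missed it in the edgeR fits of the report, 3 (all Arc against control) no longer passed and 0 reversed. Deviations of same-numbered libraries from their group means correlated between -0.310 and 0.117, over 0.1 in 1 of 9 pairs. Those of different-numbered libraries correlated between -0.160 and 0.249, over 0.1 in 3 of 18 pairs. With 3 libraries a group, these values cannot show whether replicate numbers pair the samples. With the replicate block the counts were 0 in each comparison except the lower doses minus control, with 1, and 2891 genes had an unadjusted p under 0.05 for the lower doses minus injured. With 3 libraries a group, a count of 0 does not show that no gene differed.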

Other observations

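Against controls, several genes not named so far were higher in the lower doses at an unadjusted p under 0.05 and missed the adjusted threshold in edgeR. Among all genes tested 2.21% were higher at such a p, or 5.39% without injured replicate 1. Egr2, an immediate early transcription factor, had 61.4, 55.2 and 62.5 CPM in HuMSC20 and 61.8, 95.6 and 37.5 CPM in HuMSC50, against 30.8, 41.9 and 32.5 CPM in controls (log2 difference 0.83 ± 0.26). Of the 6 lower-dose libraries 5 lay above all controls, but only 1 lay above all injured libraries. Its relative Egr3 was at 0.83 ± 0.25, with 5 of the 6 above all controls and 5 above all injured libraries. Of 8 mast cell genes 3 were higher with a median of 0.76, and Tpsab1, a mast cell tryptase, had 2.12, 7.60 and 2.73 CPM in HuMSC20 and 4.06, 2.42 and 4.50 CPM in HuMSC50, against 1.70, 0.944 and 1.25 CPM in controls. Injured libraries had 4.24, 6.90 and 4.66 CPM of it. Of 10 fibroblast genes 4 were higher than in controls, with a median of 0.41. Their mean log2 CPM was 4.63 in HuMSC50 replicate 3, against 3.47 to 3.97 in the other lower-dose libraries and 3.26 to 3.91 in controls.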
